A study of Mus musculus with 6 samples.

Results

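The genes described here are 10 liver enzymes of methionine, betaine, glycine and cysteine metabolism, taken by gene symbol from tables of 24927 rows: Mat1a, Ahcy, Gnmt, Bhmt, Bhmt2, Cbs, Cth, Dmgdh, Gldc and Pemt. All 10 symbols had 1 row each, and 6 of the 10 were high enough to enter the test across all genes. RNA-seq of whole livers was compared between 3 libraries labelled Cdkl3-/- and 3 libraries labelled wild type. Every mouse was labelled as a male of the C57BL/6 strain, 10 months old, and the series design gives a chow diet and a knockout made in the liver. The labels used here name no promoter or Cre line and leave it unsaid whether the 6 libraries are from 6 animals, and the p-values then measure the spread among libraries, which may be technical. Values are FPKM, mapped fragments scaled to the length of the transcript and the size of the library.

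Methionine is turned into S-adenosylmethionine, the methyl donor of most cellular methylation, by methionine adenosyltransferase. After a methyl group has been passed on, S-adenosylhomocysteine is left, and Ahcy splits it into adenosine and homocysteine. Homocysteine is either methylated back to methionine, with betaine or folate as the donor, or drained into cysteine by Cbs and Cth, the transsulfuration route. The liver is the main site of this cycle, and hepatocytes are known for high levels of its enzymes.

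Several facts of the libraries bear on each value below. Cdkl3 itself was not lower in the libraries labelled knockout, with 0.139 ± 0.0600 FPKM, against 0.124 ± 0.0390 FPKM in the libraries labelled wild type (SD, n = 3 each). Its log2 difference was 0.02, with a 95% interval of -0.13 to 0.17 and a limma adjusted p of 0.84 in a fit without a filter on low values. Xist, the RNA of the inactive X chromosome, was at 0.0125 to 0.0273 FPKM in the libraries labelled knockout and at 192 to 292 FPKM in those labelled wild type. The Y-linked gene Ddx3y showed the opposite, at 38.2 to 50.8 FPKM in the libraries labelled knockout and 0.0694 to 0.207 FPKM in those labelled wild type. Sex as read from these genes and the labelled genotype therefore cannot be told apart. Counted reads, recovered from the steps of low values, numbered about 24530400 to 39554900 in the libraries labelled knockout and 20466700 to 48615800 in those labelled wild type. Mitochondrial transcripts took 63.2% to 70.1% of all FPKM in the libraries labelled knockout and 70.5% to 73.9% in those labelled wild type. Knockout replicate 1 also held kidney transcripts, with a sum of 5282 FPKM over 7 tubule markers, where no other library exceeded 5.84 FPKM. Kap alone was 5264 FPKM of that sum. Each of the other markers was also highest in that library, at 0.251 to 9.77 FPKM. Kap was at 4.18 and 5.72 FPKM in knockout replicates 2 and 3 and at 0 to 0.0785 FPKM in the libraries labelled wild type.

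Marker genes of the liver cell types differed between the groups as well. The summed level of 6 hepatocyte markers (Alb among them) was 1931 to 3106 FPKM in the libraries labelled knockout and 707 to 1135 FPKM in those labelled wild type, and none of the 6 was at 0 throughout. Alb and Fgb carry that sum. Alb, Fgb, Ttr and Tat were higher in each library labelled knockout, as was Apoa1 at low levels. Hnf4a overlapped, at 5.14 to 11.4 FPKM in the libraries labelled knockout and 4.80 to 6.09 FPKM in those labelled wild type. The 5 stellate cell and fibroblast markers summed to 20.1 to 31.2 FPKM in the libraries labelled knockout and 70.6 to 123 FPKM in those labelled wild type. That sum is mostly Dcn, at 15.4 to 28.2 FPKM in the libraries labelled knockout and 61.5 to 116 FPKM in those labelled wild type; Lrat was also lower, Acta2 overlapped, and the collagens Col1a1 and Col1a2, under 0.4 FPKM throughout, were higher in each library labelled knockout. Endothelial markers, 6 in number, gave 5.90 to 7.24 FPKM in the libraries labelled knockout and 10.8 to 11.8 FPKM in those labelled wild type. Of these Lyve1, Kdr and Oit3 were lower in each library labelled knockout, Stab2 overlapped, and Clec4g and Pecam1, at low levels, were higher in each. The summed levels overlapped between the groups for 6 macrophage markers, 3 cholangiocyte markers, 5 lymphocyte markers and 8 periportal hepatocyte markers. Single members still differed, in both directions. Periportal Cyp2f2 and Hal were higher in each library labelled knockout. Arg1 was lower, at 129 to 152 FPKM in those and 154 to 380 FPKM in the libraries labelled wild type. Among macrophage markers Adgre1 was lower in each library labelled knockout and Clec4f, at low levels, higher. Among cholangiocyte markers Epcam and Sox9 were higher in each and Spp1 lower. The sums did not overlap for 6 pericentral hepatocyte markers, at 1282 to 1554 FPKM in the libraries labelled knockout and 444 to 819 FPKM in those labelled wild type. Members went both ways there: Cyp2e1, which carries the sum, was at 1026 to 1372 FPKM in the libraries labelled knockout and 90.6 to 231 FPKM in those labelled wild type, Oat at 149 to 204 FPKM in the libraries labelled knockout and 312 to 706 FPKM in those labelled wild type, and Slc1a2 overlapped. The sums of 3 erythroid markers were 0.803 to 1.57 FPKM in the libraries labelled knockout and 0.424 to 0.585 FPKM in those labelled wild type. Only Alas2 lay apart, at 0.475 to 1.07 FPKM in the libraries labelled knockout and 0.0342 to 0.0693 FPKM in those labelled wild type. The globins Hbb-bs and Hbb-bt overlapped, and all these levels are low. In whole tissue, fewer cells of a type and less RNA per cell cannot be told apart, and the part of these markers in the results below was not tested.

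Over all genes, 33.7% of 5673 tested genes had a higher call and 20.4% a lower call, knockout against wild type (limma on log2(FPKM + 1), Benjamini-Hochberg adjusted p under 0.05). Among the 6 tested enzymes, 3 were called higher and 1 lower, and with 6 genes these shares are not set apart from that background. These shares are 1911 and 1157 genes, and the balance turned with the scaling, to 1443 higher and 1891 lower after median centring and 1348 higher and 1577 lower after removal of the GC trend. The median log2 difference of the 6 enzymes was 0.90, against 0.12 over all tested genes, a median that was -0.16 after median centring and -0.097 after removal of the GC trend. No overlap between the groups was seen in 4 of the 6, against 63.9% of all tested genes; 3 of the 4 lay higher, against 38% of tested genes, and 1 lower, against 25.8%. Base composition went with the direction of change. Among tested genes of 50 to 55% GC the median log2 difference was 0.68, against -0.42 under 40% GC.

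**Figure D1:**
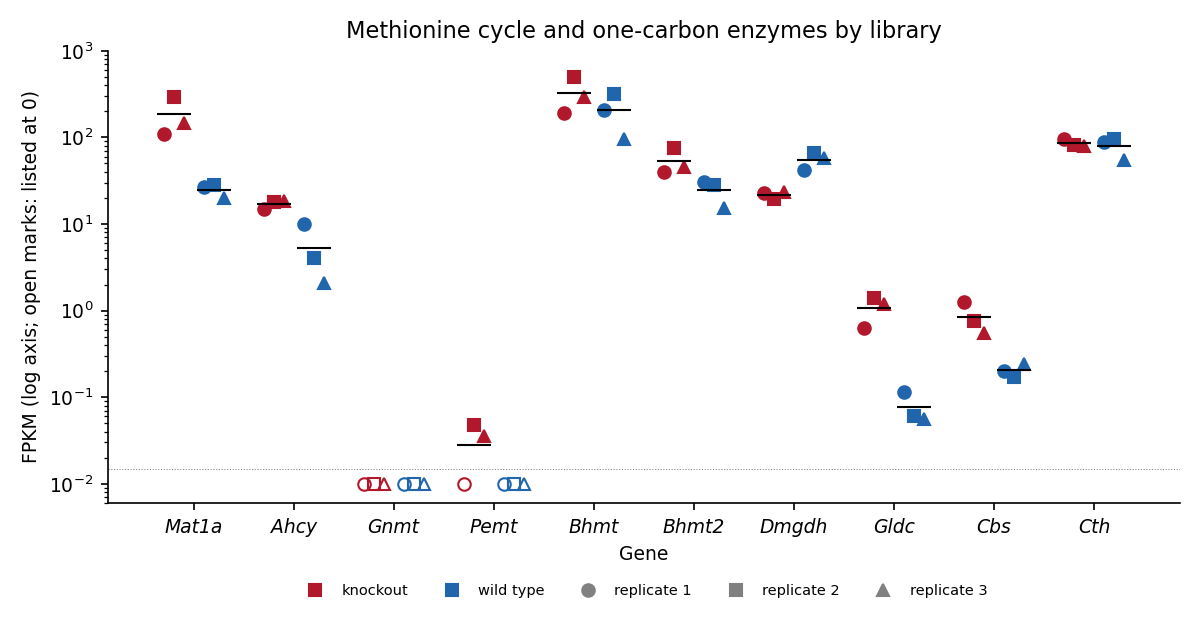
FPKM on a log axis (vertical) for the 10 enzymes (horizontal), with the 3 libraries labelled knockout in red to the left of the 3 labelled wild type in blue, replicates by marker shape, a black line at each group mean and open marks for values listed at 0. Mat1a is higher and Dmgdh lower in every library labelled knockout, Cth overlaps between the groups, and Gnmt is listed at 0 in all 6 libraries.

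Mat1a, the liver-specific methionine adenosyltransferase that makes S-adenosylmethionine, was the enzyme with the largest difference among those tested. It measured 111, 295 and 148 FPKM in knockout replicates 1 to 3 and 27.0, 27.9 and 20.0 FPKM in wild type replicates 1 to 3. Every library labelled knockout lay above every library labelled wild type, and knockout replicate 2 lay far above the other two. The means were 184 ± 97.3 FPKM in the libraries labelled knockout and 25 ± 4.33 FPKM in those labelled wild type (SD, n = 3 each), a ratio of 7.38. Its log2 difference was 2.72 (SE 0.34, limma adjusted p = 0.00056). Without knockout replicate 2 it was 2.32, and without knockout replicate 1, which held the kidney transcripts, 3.03. In GENCODE M21, on the GRCm38 build and not the GRCm39 of the processing notes, Mat1a runs forward on chromosome 14 from 41105035 to 41124412 with 10 merged exons, and none of its 75-base stretches occurs in a transcript of another gene.

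The S-adenosylmethionine synthetase of most other tissues is Mat2a, named here as the counterpart of Mat1a after its values were seen. Mat2a averaged 53.9 ± 14.8 FPKM in the libraries labelled knockout and 49.2 ± 16.5 FPKM in those labelled wild type (SD, n = 3 each; limma adjusted p = 0.69). The sign of its log2 difference, 0.15, turned to -0.14 after median centring. A ratio within a library does not depend on a factor shared by all its genes, but removal of a GC trend can change it. Mat1a has 49.8% GC and Mat2a 43.1%, and with that trend removed their log2 differences were 2.09 and -0.017. The ratio of Mat1a to Mat2a was 1.57, 6.11 and 3.45 in knockout replicates 1 to 3. In wild type replicates 1 to 3 it was 0.598, 0.795 and 0.297. Mat1a thus exceeded Mat2a per length in 3 of 3 libraries labelled knockout and in 0 of 3 labelled wild type. The exact permutation p of the log2 ratio, two-sided, was 0.1, the smallest that 3 against 3 libraries allow.

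Ahcy, which removes S-adenosylhomocysteine, a strong inhibitor of methyltransferases, was also higher. Its values were 14.9, 17.9 and 18.3 FPKM in knockout replicates 1 to 3 and 9.96, 4.0 and 2.09 FPKM in wild type replicates 1 to 3. The libraries labelled knockout lay close together, while those labelled wild type spread widely without reaching them. The log2 difference was 1.70 (SE 0.42, limma adjusted p = 0.011), and it lost the call after removal of the GC trend, at 0.99 with an adjusted p of 0.056. Of the 75-base stretches of its transcript 74.4% also occur in transcripts of 3 other genes, Gm4737 first among them, so reads can be split and the level of Ahcy is uncertain. Gm4737 was listed at 0.0536 to 0.290 FPKM in the libraries labelled knockout and at 0 to 0.146 FPKM in those labelled wild type.

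2 methyltransferases that take the methyl group of S-adenosylmethionine were barely seen in either group. Gnmt, the glycine N-methyltransferase known as an abundant cytosolic liver protein that disposes of excess S-adenosylmethionine, was listed at 0 in all 6 libraries. A count of 0 allows up to 3 reads, or 0.0629 to 0.101 FPKM in the libraries labelled knockout and 0.0512 to 0.122 FPKM in those labelled wild type. Pemt, which makes phosphatidylcholine from phosphatidylethanolamine, was listed at 0, 0.0481 and 0.0356 FPKM in knockout replicates 1 to 3 and at 0 in each library labelled wild type. These values are 0, 4 and 2 reads, and 0 reads in wild type, and a fold change is not given at that depth (log2 difference 0.04, limma adjusted p = 0.24 in the fit without a filter). Without knockout replicate 1, the library with 0 reads, the limma adjusted p was 0.029 at a log2 difference of 0.06. It was 0.40 without knockout replicate 2 and 0.37 without knockout replicate 3. The value of 0.029 comes with the choice of the library left out and rests on 4 and 2 reads, so it is no support for a difference.

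Both transcripts are rich in G and C, with 57.5% GC for Gnmt and 54.9% for Pemt. Among 2381 protein-coding rows of 55% GC or more, the bin of Gnmt, 4.91% averaged at least 1 FPKM in the libraries labelled knockout and 2.52% in those labelled wild type. Pemt falls in the bin of 50 to 55% GC. Among its 3672 rows the shares were 19.3% in the libraries labelled knockout and 10.7% in those labelled wild type, and 6.67% were at 0 in every library. Among 3136 rows of 40 to 45% GC the shares were 60.3% in the libraries labelled knockout and 57.3% in those labelled wild type. A value of 0 in every library, as for Gnmt, was less common. It was seen in 16.0% of the rows of 55% GC or more and in 2.58% of those of 40 to 45% GC. A 0 for a GC-rich transcript in these tables does not show that it was absent from the liver.

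The betaine branch is encoded in part by 3 neighbouring genes on chromosome 13, of which Dmgdh was lower, Bhmt2 higher and Bhmt not past the threshold. Bhmt moves a methyl group from betaine to homocysteine, Bhmt2 does the same with S-methylmethionine as its donor, and Dmgdh, a mitochondrial flavoenzyme, oxidises the dimethylglycine that Bhmt leaves. In GRCm38 (GENCODE M21) Bhmt begins the cluster at 93616675 and Bhmt2 follows at 93655720, both on the minus strand. Dmgdh starts at 93674433 on the plus strand, so Bhmt2 and Dmgdh are read away from each other. In RefSeq (GRCm38.p6) their starts are at 93674302 and 93674436, and the 133 bases between them are shown because the genes on either side of them differed in direction. The stretch is chr13:93674303-93674435, plus strand, with the letters CCGCCC, which are GGGCGG on the other strand, in capitals.
Between Bhmt2 and Dmgdh: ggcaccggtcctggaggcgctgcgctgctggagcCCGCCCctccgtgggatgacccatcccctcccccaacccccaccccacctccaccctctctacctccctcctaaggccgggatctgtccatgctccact

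The stretch between Bhmt2 and Dmgdh has 69.9% GC and 6 CpG pairs. On either strand, GGGCGG is found in 35.9% of 27025 RefSeq promoter windows, which run from 250 bases before to 50 bases after a start. The windows of Bhmt2 and Dmgdh overlap and both hold it, and that of Bhmt does not. CCAAT, found in 37.9% of windows, is in that of Bhmt and in neither of the others. Windows were found for 8 of the 10 enzymes, without Mat1a and Cth. A match of letters is a description and not a site of binding.

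Dmgdh was the one tested enzyme called lower. Its values were 22.6, 19.4 and 23.4 FPKM in knockout replicates 1 to 3 and 42.2, 66.0 and 58.3 FPKM in wild type replicates 1 to 3, with no overlap. The libraries labelled knockout differed little among themselves, and the lowest library labelled wild type was replicate 1. The means were 21.8 ± 2.12 FPKM in the libraries labelled knockout and 55.5 ± 12.1 FPKM in those labelled wild type (SD, n = 3 each). The log2 difference was -1.29 (SE 0.20, limma adjusted p = 0.0013). It was called in each of 18 other settings, with values of -2.29 to -1.16. The antisense gene AW495222, which overlaps Dmgdh, was listed at 0 to 0.133 FPKM in the libraries labelled knockout and at 0 to 0.0448 FPKM in those labelled wild type. Whether reads were counted by strand is not given in the sources used here.

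Bhmt2, on the other side of the same start region, was higher in each library labelled knockout. It measured 39.9, 74.9 and 45.1 FPKM in knockout replicates 1 to 3 and 30.8, 28.2 and 15.4 FPKM in wild type replicates 1 to 3. Knockout replicate 2 was high and wild type replicate 3 low within their groups. The log2 difference was 1.08 (SE 0.32, limma adjusted p = 0.022). The call was lost without knockout replicate 2 (0.81, adjusted p = 0.065), without wild type replicate 3 (0.78, adjusted p = 0.066), after median centring (0.80, adjusted p = 0.055) and after removal of the GC trend (0.45, adjusted p = 0.22). Rescaling to FPKM outside mitochondrial transcripts (0.71, adjusted p = 0.13) and the fit without a filter (1.08, adjusted p = 0.072) lost it as well. The call of Bhmt2 was kept in 10 of 18 other settings.

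Bhmt was the most abundant of the 10 enzymes in both groups, and its groups overlapped. It measured 194, 503 and 291 FPKM in knockout replicates 1 to 3 and 206, 313 and 95.3 FPKM in wild type replicates 1 to 3. Knockout replicate 1 lay below wild type replicates 1 and 2. The log2 difference was 0.73 with a 95% interval of -0.42 to 1.88 (limma adjusted p = 0.24), so a rise of more than 3-fold and a small fall are both within it. As with Bhmt2, replicate 2 was the highest of the libraries labelled knockout and replicate 3 the lowest of those labelled wild type. Of its 75-base stretches 9.69% occur in transcripts of other genes, among them Gm5096, at 1.10 to 2.63 FPKM in the libraries labelled knockout and 0.550 to 2.13 FPKM in those labelled wild type.

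Ratios within each library set the 3 neighbours against each other, free of any factor shared by the whole library. The pairs were chosen after their values were seen. Such ratios are not free of base composition, with 43.1% GC for Bhmt and 49.9% for Bhmt2 and Dmgdh. Bhmt2 to Dmgdh was 1.77, 3.86 and 1.93 in knockout replicates 1 to 3 and 0.730, 0.427 and 0.264 in wild type replicates 1 to 3. Bhmt to Dmgdh was 8.58, 25.9 and 12.4 in knockout replicates 1 to 3 and 4.87, 4.74 and 1.64 in wild type replicates 1 to 3. Neither ratio overlapped between the groups (two-sided exact permutation p = 0.1 for each, the smallest possible). Bhmt to Bhmt2, by contrast, was 4.85, 6.71 and 6.44 in the libraries labelled knockout and 6.68, 11.1 and 6.18 in those labelled wild type, and there the groups overlapped (exact permutation p = 0.5).

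**Figure D2:**
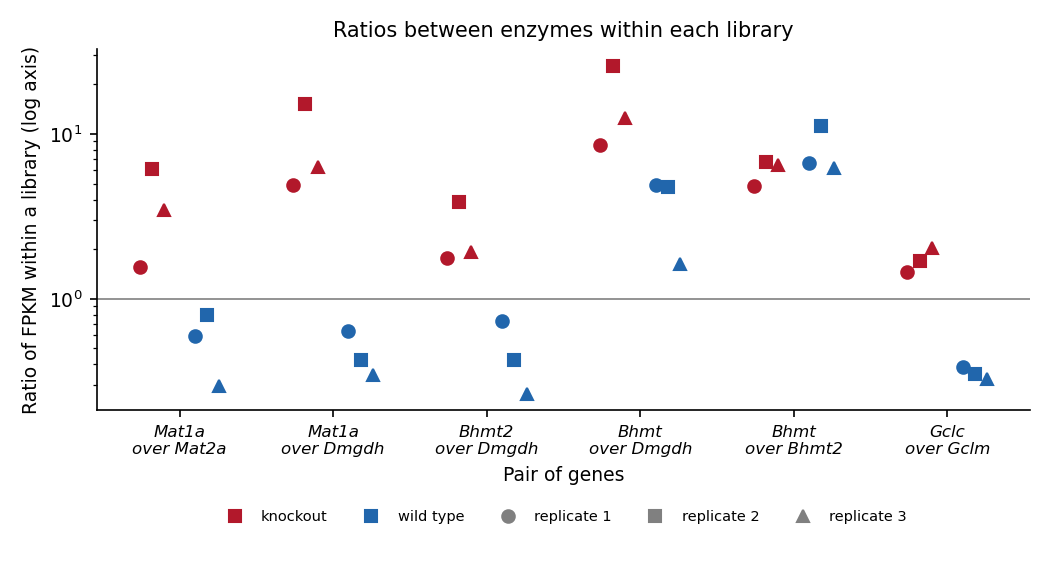
Ratio of FPKM of 2 genes within a library (vertical, log axis) for 6 pairs (horizontal), with libraries labelled knockout in red to the left of those labelled wild type in blue and replicates by marker shape. The grey line marks equal levels per length. Mat1a exceeds Mat2a and Dmgdh in each library labelled knockout and in none labelled wild type, and only the pair Bhmt and Bhmt2 overlaps between the groups.

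The 4 called enzymes Mat1a, Ahcy, Bhmt2 and Dmgdh have 49.8%, 51.9%, 49.9% and 49.9% GC, and merged exon lengths of 3468, 2805, 2467 and 3414 bases. Mat1a and Dmgdh, a pair chosen after their values were seen, had a ratio of Mat1a to Dmgdh of 4.91, 15.2 and 6.30 in knockout replicates 1 to 3 and 0.640, 0.423 and 0.343 in wild type replicates 1 to 3. With the trends on GC content and length taken out of every library these 2 calls stayed, at log2 differences of 2.03 (adjusted p = 0.0012) for Mat1a and -1.99 (adjusted p = 0.00055) for Dmgdh. Those of Ahcy (0.81, limma adjusted p = 0.093) and Bhmt2 (0.20, limma adjusted p = 0.54) were lost, which left 1 enzyme called higher in place of 3. The part of base composition in these differences was not tested.

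**Figure D3:**
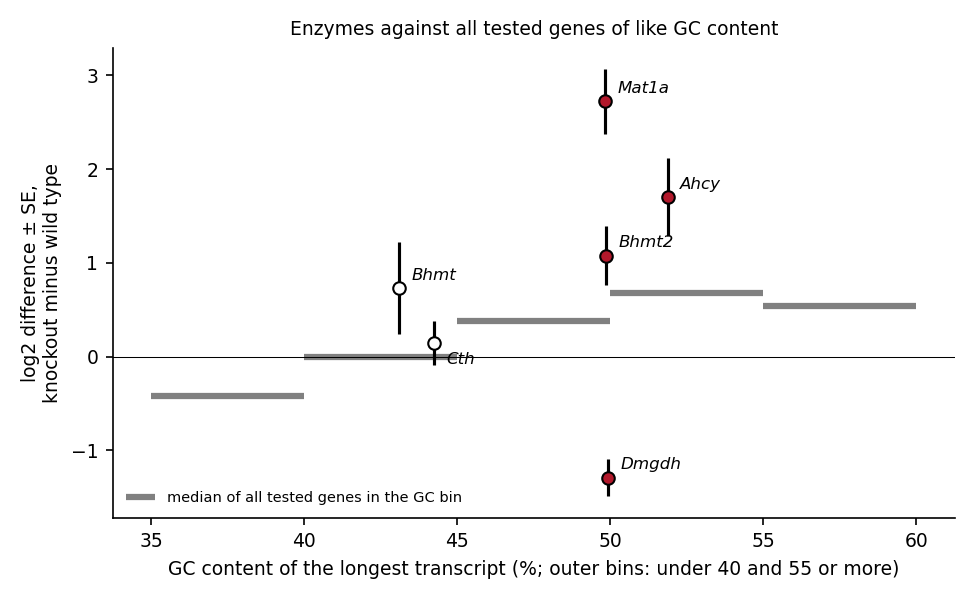
Log2 difference, knockout minus wild type, with its SE (vertical) against the GC content of the transcript in percent (horizontal) for the 6 tested enzymes, filled red where the adjusted p was under 0.05. Grey bars give the median of all tested genes in each GC bin, from -0.42 under 40% GC to 0.68 at 50 to 55% GC. Mat1a at 2.72 and Dmgdh at -1.29 stand at nearly the same GC content.

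**Figure D4:**
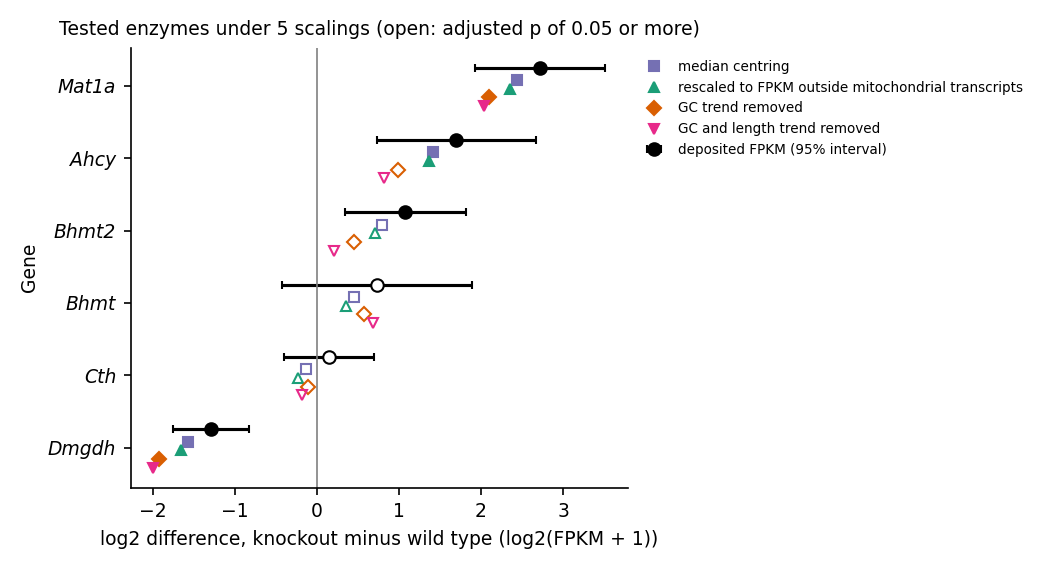
Log2 difference, knockout minus wild type (horizontal), of the 6 tested enzymes (vertical) for the deposited FPKM with a 95% interval and for 4 other scalings, with open marks where the adjusted p was 0.05 or more. Mat1a stays above 2 and Dmgdh below -1 in all 5, and Cth lies on either side of 0. Ahcy and Bhmt2 lose their calls with the GC trend removed, and Bhmt2 also with median centring and with rescaling.

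Gldc, the decarboxylase that starts the mitochondrial glycine cleavage system and feeds one-carbon units to folate, was low but higher in the libraries labelled knockout. It measured 0.629, 1.39 and 1.19 FPKM in knockout replicates 1 to 3 and 0.114, 0.0608 and 0.0562 FPKM in wild type replicates 1 to 3, from 94, 336 and 194 reads in knockout and 25, 18 and 7 reads in wild type replicates. The groups lay well apart, and wild type replicate 1 was the highest of its group. The pooled read rate was 14.4 times as high in the libraries labelled knockout, with a 95% exact interval of 10.8 to 19.7 that covers counting error only. Gldc fell under the filter, and fitted without a filter, over 20529 genes, its log2 difference was 0.93 (SE 0.16, limma adjusted p = 0.011), where 15.4% of genes were called higher and 20.5% in either direction. The adjusted p was 0.051 without knockout replicate 2, 0.059 without wild type replicate 2 and 0.058 without wild type replicate 3.

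The 2 enzymes of transsulfuration behaved differently from each other. Cbs, which condenses homocysteine with serine, measured 1.25, 0.753 and 0.550 FPKM in knockout replicates 1 to 3 and 0.200, 0.170 and 0.242 FPKM in wild type replicates 1 to 3. Knockout replicate 1, with the kidney transcripts, was the highest. The groups did not overlap, and the reads behind these values numbered 229, 223 and 110 in knockout replicates and 54, 62 and 37 in wild type replicates. The read rate was 4.25 times as high in the libraries labelled knockout (95% exact interval 3.55 to 5.12, counting error only). Without a filter the log2 difference was 0.60 (SE 0.15, limma adjusted p = 0.034), and 0.45 without knockout replicate 1 (adjusted p = 0.026). The call was lost without knockout replicate 2 (adjusted p = 0.12) and without wild type replicate 1, 2 or 3 (adjusted p = 0.097, 0.12 and 0.11).

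Cth, the lyase that splits cystathionine to give cysteine, was not past the threshold. It measured 95.3, 82.4 and 80.4 FPKM in knockout replicates 1 to 3 and 88.8, 95.8 and 54.4 FPKM in wild type replicates 1 to 3. The libraries labelled knockout lay within the range of those labelled wild type. The log2 difference was 0.15, with a 95% interval of -0.40 to 0.69 (limma adjusted p = 0.63), and its sign turned under median centring (-0.14) and without wild type replicate 3 (-0.10). Per length, Cth was 76.4, 109 and 146 times as abundant as Cbs in knockout replicates 1 to 3 and 443, 562 and 225 times as abundant in wild type replicates 1 to 3.

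Ordered by mean FPKM per group, the enzymes ran Bhmt, Mat1a, Cth, Bhmt2, Dmgdh and Ahcy in the libraries labelled knockout, and Bhmt, Cth, Dmgdh, Mat1a, Bhmt2 and Ahcy in those labelled wild type. Gldc, Cbs, Pemt and Gnmt followed in both groups, with Cbs before Gldc in wild type and Pemt and Gnmt both at 0 there. In the libraries labelled knockout, neighbours whose ranges overlapped were Bhmt with Mat1a, Gldc with Cbs, and Pemt with Gnmt. In those labelled wild type they were Bhmt with Cth, Cth with Dmgdh, Mat1a with Bhmt2, and Gnmt with Pemt. Among 23003 rows outside the mitochondrial transcripts, Bhmt ranked 44 to 92 in the libraries labelled knockout and 42 to 207 in those labelled wild type. Mat1a ranked 75 to 159 in the libraries labelled knockout and 632 to 939 in those labelled wild type. The tested genes most like Bhmt over the 6 libraries, by Pearson's r of log2(FPKM + 1), were Gpt2 (0.967), Igtp (0.954), Ikbkb (0.949), Vav2 (0.949) and Ddx19a (0.943). These are the highest r picked from all tested genes over only 6 libraries, so high values come with the choice. Shared regulation was not tested.

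Further genes of one-carbon and sulfur metabolism were read from 6 lists of 74 genes, of which 70 had a row and 37 were tested. Calls were made for 27 of the 37, 22 higher and 5 lower in knockout than in wild type, with a median log2 difference of 0.75 against 0.12 over all tested genes. Their background was 33.7% higher and 20.4% lower. 5 of the 37, Shmt1, Csad, Suox, Nnmt and Apip, were under 1 FPKM in every library labelled wild type and passed the filter through the other group alone. All 5 are among the 22, and they had little room to be called lower. Their calls, and their part in the counts and in the median of 0.75, are no support for a direction. Of the other called genes, Slc19a1, Chdh and Aldh7a1 reached 1 FPKM in fewer than 3 libraries labelled wild type. They too entered the test only with libraries labelled knockout, and the same limit holds for them. After removal of the GC trend 14 of the listed genes were higher and 6 lower. In that setting 1348 of all 5539 tested genes were higher and 1577 lower. Shmt1, Csad, Suox and Nnmt are among the 14, under the limit just given.

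**Figure D5:**
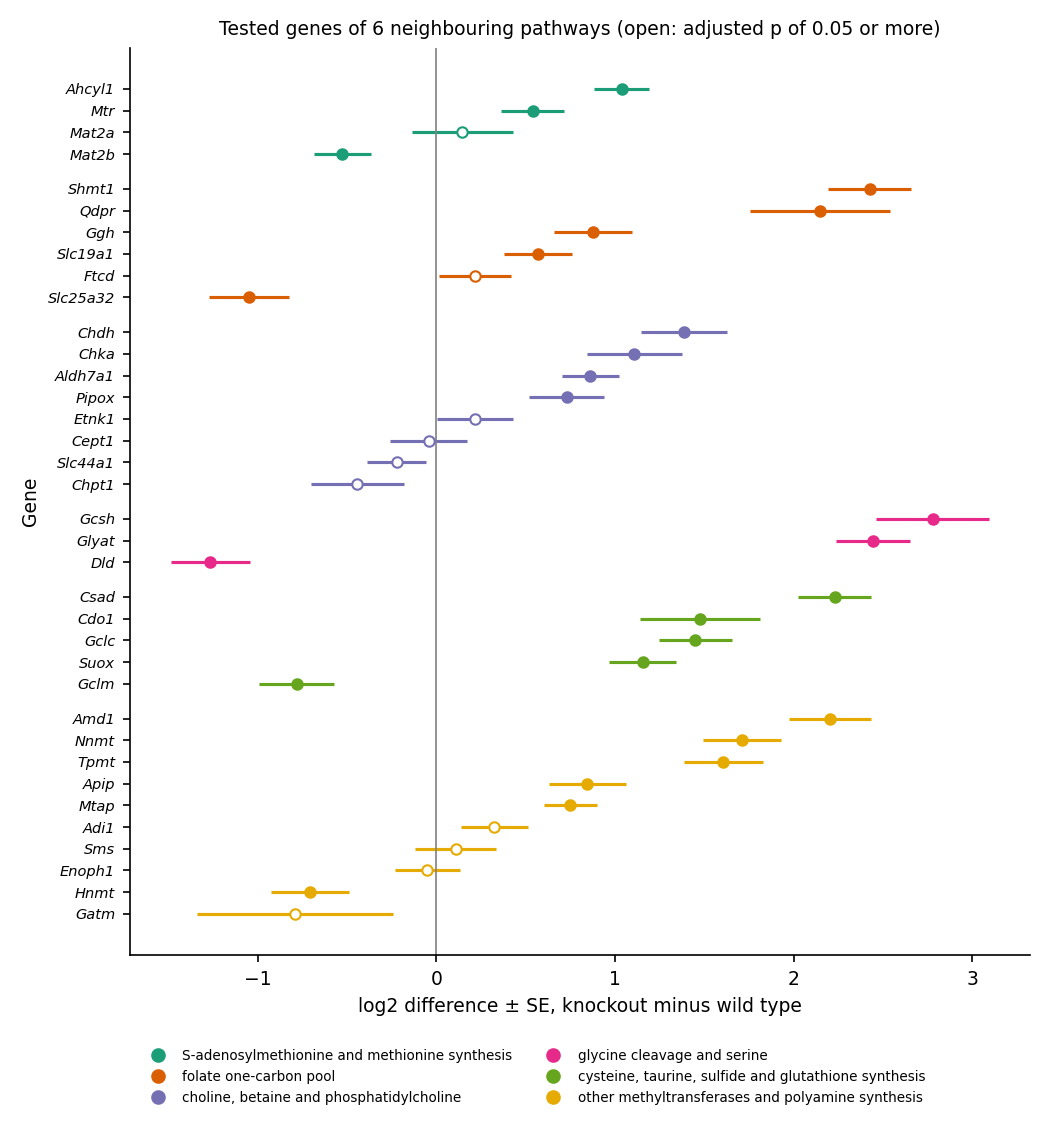
Log2 difference, knockout minus wild type, with its SE (horizontal) of all but 1 of the 37 tested genes (vertical) of 6 neighbouring pathways, coloured by pathway, with open marks where the adjusted p was 0.05 or more. Called genes lie on both sides of 0, among them Gcsh at 2.78 and Dld at -1.27 of the same glycine cleavage system.

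In methionine synthesis and S-adenosylmethionine supply, 2 of 4 tested genes were higher and 1 lower, against 33.7% and 20.4% of all tested genes. Lists this small are not set apart from that background, and the same holds for those below. Ahcyl1, a relative of Ahcy that acts on inositol trisphosphate receptors, averaged 24.2 ± 1.93 FPKM in the libraries labelled knockout and 11.3 ± 0.794 FPKM in those labelled wild type (SD, n = 3 each; limma adjusted p = 0.0010). Mat2b, the regulatory subunit of the Mat2a enzyme, was at 7.78 ± 0.850 FPKM in the libraries labelled knockout and 11.6 ± 1.03 FPKM in those labelled wild type (adjusted p = 0.024). The call of Mat2b was lost without knockout replicate 2 or wild type replicate 1 or 2 (adjusted p = 0.089, 0.056 and 0.062). Mtr, the folate-dependent methionine synthase, had 2.51 ± 0.343 FPKM in knockout libraries and 1.43 ± 0.439 FPKM in wild type libraries (adjusted p = 0.032). Its call was lost after median centring (adjusted p = 0.20), after removal of the GC trend (0.45) and without any 1 library other than wild type replicate 1.

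Of the folate genes, 5 of 7 tested were higher and 1 lower, against 33.7% and 20.4% of all tested genes. Shmt1 and Slc19a1, which entered the test only with libraries labelled knockout, are among the 5. Shmt1, the cytosolic serine hydroxymethyltransferase that loads one-carbon units on folate, was at 5.82, 11.1 and 7.62 FPKM in knockout replicates 1 to 3 and at 0.951, 0.551 and 0.516 FPKM in wild type replicates 1 to 3. Its groups did not overlap, and it is among the genes that passed the filter through knockout alone, so no p is given. Qdpr, a pteridine reductase, averaged 28.6 ± 5.57 FPKM in knockout libraries and 6.44 ± 4.72 FPKM in wild type libraries (limma adjusted p = 0.0029). Slc25a32, which carries folate into mitochondria, was lower, at 8.67 ± 2.73 FPKM in the libraries labelled knockout and 18.6 ± 2.57 FPKM in those labelled wild type (adjusted p = 0.0052).

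Among genes of choline, betaine and phosphatidylcholine, 4 of 8 tested were higher and 0 lower, against 33.7% and 20.4% of all tested genes. Chdh and Aldh7a1, which oxidise choline to betaine, averaged 5.33 ± 1.55 and 2.49 ± 0.0815 FPKM in the libraries labelled knockout and 1.40 ± 0.471 and 0.938 ± 0.308 FPKM in those labelled wild type. Chdh was under 1 FPKM in wild type replicate 2 and Aldh7a1 in wild type replicates 2 and 3. Both therefore entered the test only with libraries labelled knockout. No p is given for them, and their calls are no support for a direction. Chka, a choline kinase, was at 3.71 ± 1.60 FPKM in knockout libraries and 1.09 ± 0.0798 FPKM in wild type libraries (limma adjusted p = 0.0090). The sarcosine oxidase Pipox was at 9.20 ± 2.13 FPKM in knockout libraries and 5.13 ± 1.06 FPKM in wild type libraries (adjusted p = 0.020). All 4 calls were lost after removal of the GC trend, with adjusted p = 0.13 for Chka and 0.69 for Pipox. With the trends on GC content and length both removed, Chka kept its call (0.86, adjusted p = 0.027). Chdh was called there too, under the same limit of the filter, so that is no support for a direction either. Pipox also lost its call after median centring (adjusted p = 0.078) and without knockout replicate 2, wild type replicate 2 or wild type replicate 3 (adjusted p = 0.068, 0.059 and 0.074).

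Of the glycine genes, 2 of 3 tested were higher and 1 lower, against 33.7% and 20.4% of all tested genes. Gcsh, the lipoyl carrier protein of the glycine cleavage system, was at 17.9, 28.6 and 16.3 FPKM in knockout replicates 1 to 3 and at 3.81, 1.47 and 1.52 FPKM in wild type replicates 1 to 3 (log2 difference 2.78, SE 0.32, limma adjusted p = 0.00036). Dld, its dihydrolipoamide dehydrogenase, shared with the pyruvate and oxoglutarate dehydrogenases, was at 85.2, 72.1 and 90.9 FPKM in knockout replicates 1 to 3 and at 150, 240 and 220 FPKM in wild type replicates 1 to 3 (log2 difference -1.27, SE 0.22, adjusted p = 0.0022). Neither gene overlapped between the groups, in opposite directions. Glyat, which conjugates glycine to acyl groups, averaged 84.6 ± 15.3 FPKM in knockout libraries and 14.7 ± 2.72 FPKM in wild type libraries (adjusted p = 0.00014).

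Downstream of cysteine, 4 of 5 tested genes were higher and 1 lower, against 33.7% and 20.4% of all tested genes. Csad and Suox, which passed the filter through knockout alone, are among the 4. Cdo1, the dioxygenase that commits cysteine to taurine and sulfate, was at 736 ± 89.6 FPKM in the libraries labelled knockout and 282 ± 118 FPKM in those labelled wild type (SD, n = 3 each; limma adjusted p = 0.0072). That call was lost after quantile normalization (adjusted p = 0.11) and after removal of the GC and length trend (0.16). Csad, the decarboxylase of the taurine route, averaged 5.38 ± 1.70 FPKM in knockout libraries and 0.329 ± 0.0427 FPKM in wild type libraries. Suox, the sulfite oxidase, averaged 1.80 ± 0.453 FPKM in knockout libraries and 0.264 ± 0.264 FPKM in wild type libraries. Both passed the filter through knockout alone, so no p is given for them. The 2 subunits of glutamate-cysteine ligase, the first enzyme of glutathione synthesis, went opposite ways. Gclc, the catalytic subunit, averaged 98.4 ± 21.9 FPKM in the libraries labelled knockout and 35.0 ± 4.72 FPKM in those labelled wild type (adjusted p = 0.00085). Gclm, the modifier subunit, named after its values were seen, averaged 57.2 ± 7.04 FPKM in knockout libraries and 100.2 ± 22.0 FPKM in wild type libraries (adjusted p = 0.014, and 0.054 and 0.0503 without knockout replicate 2 and without wild type replicate 3). The ratio of Gclc to Gclm was 1.45, 1.69 and 2.02 in knockout replicates 1 to 3 and 0.388, 0.350 and 0.326 in wild type replicates 1 to 3.

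Among other methyltransferases and polyamine genes, 5 of 10 tested were higher and 1 lower, against 33.7% and 20.4% of all tested genes. Nnmt and Apip, which passed the filter through knockout alone, are among the 5. Amd1, the decarboxylase that diverts S-adenosylmethionine into polyamines, averaged 24.9 ± 4.62 FPKM in the libraries labelled knockout and 4.66 ± 1.35 FPKM in those labelled wild type (SD, n = 3 each; limma adjusted p = 0.00027). Nnmt, which methylates nicotinamide, was at 3.21 ± 1.26 FPKM in knockout libraries and 0.252 ± 0.0836 FPKM in wild type libraries, and as it passed the filter through knockout alone no p is given. The thiopurine methyltransferase Tpmt was at 11 ± 2.87 FPKM in knockout libraries and 2.88 ± 0.457 FPKM in wild type libraries (adjusted p = 0.00075). Mtap, which recycles methylthioadenosine towards methionine, was at 5.71 ± 0.390 FPKM in knockout libraries and 2.99 ± 0.166 FPKM in wild type libraries (adjusted p = 0.0036), and it lost its call after removal of the GC trend (0.059) and after rescaling to FPKM outside mitochondrial transcripts (0.067).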

How the data were processed

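Whole-liver RNA-seq of 3 libraries labelled Cdkl3 knockout and 3 labelled wild type was used. The deposited values are FPKM per gene, per the file headers; HISAT2 and GRCm39 were used, per the submitters' processing notes, while the counting tool is not given in the sources used here. Identifier and symbol named the same gene in 0 of 24927 rows. FPKM multiplied by exon length (GENCODE M21) gave whole reads, to within 0.15 read, for 98.9% of 43169 low values by symbol and 30.6% by identifier, so symbols were used. The 1787 rows of chromosome 1, at 36.1%, and 119 further rows without a symbol were left out. The table of knockout replicate 3 carries another sample code in its header than in its label, and the label was used. limma 3.58.1 (R 4.3.3; trend and robust options) was run on log2(FPKM + 1) of the 5673 genes that reached 1 FPKM in 3 or more libraries, with genotype as the single term, and was tested on simulated data. That scale understates changes of low genes. Shared sequence was counted in stretches of 75 bases. The 10 enzymes, the lists, the marker genes and the tests were chosen with earlier results of these data known. All 10 enzymes were named, with up to 4 genes of smallest adjusted p from each list, of which 1 is not reported here. Alternatives were other pseudocounts, filters and scalings, removal of loess trends on GC content and length, a replicate block and leaving out each library; a filter of 0.1 FPKM with a pseudocount of 0.1 was added after seeing the data, as were the repeats of the fit without a filter. Replicate numbers did not pair the samples. Intervals from reads cover counting error only. Python 3.11.15 was used for other steps.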

Additional observations from a re-analysis of the deposited data

How the results depend on the processing

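Mat1a and Dmgdh kept direction and call in all 18 other settings tried, with log2 differences of 1.81 to 3.03 and of -2.29 to -1.16. The enzymes called higher numbered 3 as reported and 1 with the GC trend or the GC and length trend removed. They numbered 2 with median centring, with rescaling, without knockout replicate 2 and without wild type replicate 3. Without a filter they numbered 4, with Cbs and Gldc called and Bhmt2 not called. Bhmt was called in none of 18 settings, at 0.26 to 1.12. Cth, never called, turned to -0.14 with median centring, -0.23 with rescaling to FPKM outside mitochondrial transcripts, -0.11 and -0.19 with the GC and the GC and length trends removed, -0.22 with the GC trend removed at a filter of 0.1 FPKM, and -0.10 without wild type replicate 3; leaving out 1 library gave -0.10 to 0.30. Mat2a turned to -0.14, -0.23 and -0.017 with the first 3 of these scalings, -0.064 without knockout replicate 1 and -0.067 without wild type replicate 2, with 0.39 the highest on leaving out 1 library, and Pipox to -0.16 with the GC and length trend removed. At that lower filter, Bhmt2 had an adjusted p of 0.71, Ahcy of 0.16 and Cbs of 0.20 with the GC trend removed. Of the listed genes 22 were higher, against 14 with the GC trend removed, 14 with GC and length removed and 8 at the stricter filter of 10 FPKM; leaving out 1 library gave 2 to 6 lower instead of 5, with 2 without knockout replicate 2 and 3 without wild type replicate 2 or 3. In the same 3 settings the higher among all tested genes were 1348 of 5539, 1391 of 5539 and 468 of 1746. Of the 22 genes that the naming rule takes from the lists 13 kept their calls in all settings where they were tested. Shmt1, Csad and Nnmt are among the 13, and as they passed the filter through knockout alone, their calls are no support for a direction. Over all genes, 1911 were higher and 1157 lower; the higher numbered 3171 without a filter and 468 at the stricter one, and the lower 559 at the stricter filter, 1891 with median centring, 1761 with quantile normalization and 1792 with rescaling. The causes were not tested. The replicate block gave 1740 higher and 1031 lower and left the calls of the 6 tested enzymes unchanged, while Cbs had an adjusted p of 0.075; correlations of same-numbered deviations were -0.0488, -0.0964 and 0.181, so the numbers did not pair the samples.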
